A study of Mus musculus with 2 samples.

Results

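The genes described here are those of the kainate receptors, Grik1 to Grik5, and of their auxiliary subunits, Neto1 and Neto2. They were taken by symbol, with no threshold on a measured value, but with earlier results of these data known. All 7 were found among the 43346 genes listed in each table. RNA was measured in 2 libraries of 1 group, labelled biological replicates 1 and 2, each made from a pool of 50 laser-captured layer 5 pyramidal neurons, the large projection neurons of a deep cortical layer. The labels give wild type, male and an age of 8 months, with the strain written as B6NCrl in one field and as C57Bl5 and C57Bl6 in others, a tag reading Control, and no treatment. Both libraries carry the same donor identifier, so it is not settled whether the pools came from different animals, and their spread may be partly or wholly technical. There is no second condition, and an exact two-sided test over 2 libraries cannot give a p below 0.5. Levels are therefore given as values per library with their SD, and no test between groups was made.

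Kainate receptors are glutamate-gated cation channels built from the subunits GluK1 to GluK5, which Grik1 to Grik5 encode. GluK1, GluK2 and GluK3 can form channels alone, whereas GluK4 and GluK5, which bind kainate with high affinity, reach the surface together with one of the others. Neto1 and Neto2 are membrane proteins with CUB domains that bind these channels and slow their closing. In the forebrain these receptors are known for slow synaptic currents, for control of transmitter release and for a G protein-linked effect on neuronal excitability.

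Part of the pore-lining loop is shown first, because it is the stretch in which the 5 receptor genes can be compared base by base and because it holds the codon edited in RNA. In each line the capitals mark the glutamine codon CAG that in Grik1 and Grik2 is known as the Q/R site, where adenosine deaminases acting on RNA can turn it into an arginine codon.
Grik1: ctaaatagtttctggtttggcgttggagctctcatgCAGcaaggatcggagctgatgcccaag
Grik2: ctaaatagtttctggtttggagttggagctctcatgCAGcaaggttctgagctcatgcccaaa
Grik3: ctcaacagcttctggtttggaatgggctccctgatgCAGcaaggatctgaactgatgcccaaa
Grik4: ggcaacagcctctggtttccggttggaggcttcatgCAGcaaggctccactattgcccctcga
Grik5: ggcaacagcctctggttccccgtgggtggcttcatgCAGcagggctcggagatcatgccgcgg

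The sequences are 63 bases of coding sequence from GENCODE M21 transcripts on GRCm38, the build called mm10. The codon lies at chr16:87940542-87940544 in Grik1, chr10:49244329-49244331 in Grik2, chr9:42547623-42547625 in Grik4 and chr7:25022497-25022499 in Grik5, all on the minus strand, and at chr4:125691207-125691209 on the plus strand in Grik3. All 5 genes encode CAG there. Over the stretch Grik1 and Grik2 shared 92.1% of bases, Grik4 and Grik5 shared 76.2%, and Grik2 and Grik5 shared 63.5%. In Grik1, Grik2 and Grik3 an exon junction follows base 43 of the stretch, and in Grik4 and Grik5 the stretch lies within 1 exon. The deposited tables hold no base calls, so editing was not measured. The gene counts were not shared out between these genes: the posterior SD of the read count was 0 for each of the 7 genes in each library.

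The libraries held 24171434 estimated reads in replicate 1 and 27946180 in replicate 2, spike-ins included. Glutamatergic neuron markers reached TPM (a share of all transcripts in the library, corrected for transcript length) of at least 1 in both libraries for 7 of 7 genes, among them Nrgn at 335 and 521 TPM and Neurod6 at 103 and 89.5 TPM in replicates 1 and 2. All 9 layer 5 markers did so too, with Pcp4 at 2134 and 4468 TPM and Rbp4 at 69.4 and 98.8 TPM. Genes of other cells were also present: 11 of 15 interneuron markers, 9 of 9 astrocyte, 9 of 9 oligodendrocyte, 5 of 7 oligodendrocyte precursor, 7 of 9 microglial and 6 of 8 endothelial markers reached that level in both. Of all 21474 protein-coding genes 52.2% did so. A gene's level in these pools therefore cannot be assigned to pyramidal neurons alone. In such pools fewer cells of a type and less RNA per cell cannot be told apart. Reads carry no molecular identifiers, so the counting intervals below cover counting error only.

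With the transcript lengths of the deposited tables, the auxiliary subunit gene Neto1 had the highest level of the 7 genes, and Grik4 the lowest, in both pools. The first rank of Neto1 was lost with its longer GENCODE M21 transcript, at which the same reads give a level of 12.8 in replicate 1 and 8.23 in replicate 2, below Neto2 at 15.4 and 10.8. Of the 7 genes 6 reached TPM of at least 1 in both libraries, against 52.2% of 21474 protein-coding genes, and the exception was Grik4. In order of mean deposited TPM they were Neto1, Neto2, Grik5, Grik2, Grik3, Grik1 and Grik4. At the deposited lengths the ranges over the libraries did not overlap between Neto1 and Neto2, between Grik2 and Grik3, or between Grik1 and Grik4. They overlapped between Neto2 and Grik5, between Grik5 and Grik2, and between Grik3 and Grik1. The order within each of these overlapping pairs is therefore not set beyond the spread. GENCODE M21 also has longer transcripts for Grik1 and Grik2, and whether the gaps below Grik2 and Grik1 hold at those lengths was not computed.

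**Figure D1:**
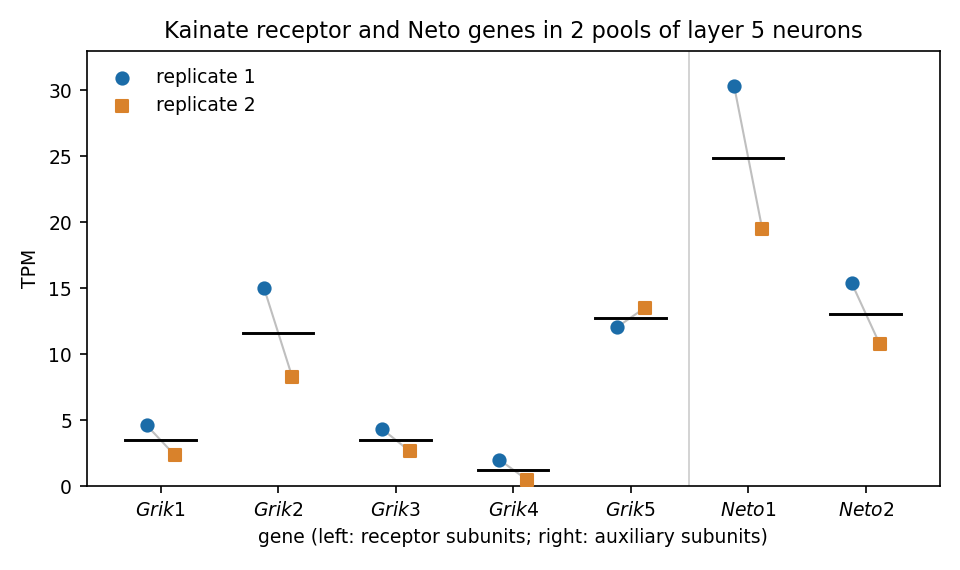
Level in TPM (vertical axis) of each of the 7 genes in replicate 1 (circles) and replicate 2 (squares), with black lines for the means. With the deposited lengths Neto1 lies highest at 30.3 and 19.5 TPM and Grik4 lowest at 2.03 and 0.48 TPM, and Grik5 is the gene whose square lies above its circle.

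Among the subunits that can form channels alone, Grik2 had the highest level at the deposited lengths. Grik2 (ENSMUSG00000056073, chromosome 10, 49094833 to 49788766, minus strand) encodes GluK2, the main channel-forming subunit in much of the forebrain, and was measured at 15.0 TPM in replicate 1 and at 8.27 in replicate 2 (11.6 ± 4.76, SD, n = 2). It rested on 1344 and 802 reads. Replicate 1 was the higher library, and at the deposited lengths both values lay above every value of Grik1, Grik3 and Grik4. The deposited gene length of Grik2 was 4578 bases in replicate 1 and 4429 in replicate 2. The GENCODE M21 transcript Grik2-207, the source of the Grik2 sequence above, is 9427 bases long. A longer length gives a lower level for the same reads. Levels at that length were not computed, so the place of Grik2 rests on the deposited lengths.

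Grik1 (ENSMUSG00000022935, chromosome 16, 87895900 to 88290265, minus strand) encodes GluK1, which in cortex is known mainly from interneurons. It stood at 4.63 and 2.36 TPM (3.50 ± 1.61, SD, n = 2), from 238 and 134 reads. Grik3 (ENSMUSG00000001985, chromosome 4, 125490700 to 125714173, plus strand) encodes GluK3, a subunit with low glutamate sensitivity, and stood at 4.37 and 2.66 TPM (3.52 ± 1.21), from 775 and 529 reads. At the deposited lengths the levels of these genes were alike although Grik3 had more reads, since TPM divides by length and the Grik3 transcript is 8973 bases long. The leading Grik1 transcript is 2601 bases as deposited and 3554 in GENCODE M21, whereas that of Grik3 has the same length in both. The likeness therefore rests on the deposited length of Grik1. Both genes were higher in replicate 1.

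The high-affinity subunits stood far apart from each other. Grik5 (ENSMUSG00000003378, chromosome 7, 25009849 to 25072346, minus strand), which encodes GluK5, the common partner of GluK2, was measured at 12.04 TPM in replicate 1 and at 13.5 in replicate 2 (12.8 ± 1.05, SD, n = 2), from 900 and 1131 reads. Grik4 (ENSMUSG00000032017, chromosome 9, 42518135 to 42944493, minus strand), which encodes GluK4 and is best known from hippocampal CA3 neurons, stood at 2.03 and 0.48 TPM (1.26 ± 1.10), from 209 and 61 reads. Grik5 was nearly level between the pools, and its lowest value lay above the highest value of Grik4. Among protein-coding genes Grik5 lay at percentiles 72.3 and 73.9 of TPM, and Grik4 at percentiles 50.0 and 40.7.

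The auxiliary subunit genes together exceeded the receptor genes in summed deposited TPM, a direction that turned with the GENCODE M21 length of Neto1. Neto1 (ENSMUSG00000050321, chromosome 18, 86394952 to 86506718, plus strand), whose product also binds NMDA receptors, was measured at 30.3 TPM in replicate 1 and at 19.5 in replicate 2 (24.9 ± 7.68, SD, n = 2), from 2082 and 1496 reads. Neto2 (ENSMUSG00000036902, chromosome 8, 85636588 to 85700924, minus strand), whose product also binds the potassium-chloride cotransporter KCC2, stood at 15.4 and 10.8 TPM (13.1 ± 3.29), from 1699 and 1328 reads. Both were higher in replicate 1, and their ratio moved little between the pools. Neto1 over Neto2 was 1.97 in replicate 1 and 1.81 in replicate 2, a log2 ratio of 0.92 ± 0.09 (SD, n = 2).

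The summed TPM of the Neto genes was 45.7 in replicate 1 and 30.2 in replicate 2, and that of the 5 Grik genes was 38.1 and 27.3. The Neto over Grik log2 ratio was 0.26 and 0.15 (0.21 ± 0.08, SD, n = 2), so the Neto sum was the higher one in each pool at the deposited lengths. The level of Neto1 rests on the transcript length used: it was 3531 bases in the deposited tables, and the same transcript is 8352 bases in GENCODE M21. For Neto2 the length was 5610 bases in both. With the M21 lengths of the genes that have 1 listed transcript and the same reads, the Neto sum was 28.2 in replicate 1 and 19.0 in replicate 2, and the Grik sum was 38.3 and 27.6. The Neto over Grik log2 ratio was then -0.44 and -0.54 (-0.49 ± 0.07), and that of Neto1 over Neto2 was -0.27 and -0.39 (-0.33 ± 0.09). Grik1, Grik2 and Grik4, which have several listed transcripts, kept their deposited lengths here. The leading Grik1 transcript is 2601 bases as deposited and 3554 in GENCODE M21, and the leading Grik2 transcript has no M21 match. The Grik sum is therefore only partly on M21 lengths, and the Neto over Grik ratio with M21 lengths for all genes was not obtained. The M21 transcript Grik2-207 is 9427 bases long, against Grik2 gene lengths of 4578 and 4429 bases in replicates 1 and 2. Longer lengths for Grik1 and Grik2 would lower the Grik sum, so how far the Neto over Grik ratio turns is not settled. Neither direction is therefore independent of the annotation, and reads over the added bases of Neto1 are not in the tables. This setting was chosen after the values were seen.

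At the deposited lengths Grik2 and Grik5 together made up most of the receptor transcripts in both pools. Grik2 held 39.4% of the summed Grik TPM in replicate 1 and 30.3% in replicate 2 (34.9% ± 6.43, SD, n = 2), and Grik5 held 31.6% and 49.5% (40.6% ± 12.7). Which of these genes led differed between the pools at these lengths. Grik2 over Grik5 was 1.25 in replicate 1 and 0.61 in replicate 2, a ratio added after the values were seen. This ratio was not computed with the longer GENCODE M21 transcript of Grik2. Grik1 held 12.2% and 8.65%, Grik3 11.5% and 9.75%, and Grik4 5.33% and 1.76%. The sum of Grik1, Grik2 and Grik3 over that of Grik4 and Grik5 was 1.71 in replicate 1 and 0.95 in replicate 2. This log2 ratio of 0.35 ± 0.60 (SD, n = 2) lay within the spread between the libraries. The summed level of Grik4 and Grik5 was 14.1 and 14.0 TPM, whereas that of Grik1, Grik2 and Grik3 was 24.0 and 13.3 TPM.

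**Figure D2:**
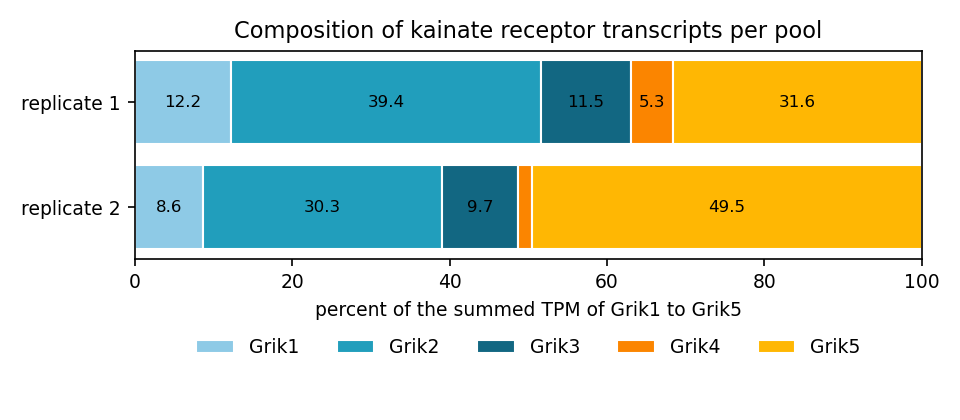
Share of each receptor gene in the summed TPM of Grik1 to Grik5 (horizontal axis, percent), one bar per pool with replicate 1 on top. Grik2 takes 39.4% in replicate 1 and 30.3% in replicate 2, and Grik5 takes 31.6% and 49.5%.

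In summed TPM the kainate receptor genes stood below the AMPA and the NMDA receptor genes, which encode the channels of most excitatory synaptic transmission. The 5 Grik genes summed to 8.79% of the summed TPM of the 4 AMPA receptor genes Gria1 to Gria4 in replicate 1 and to 6.54% in replicate 2, a log2 ratio of -3.72 ± 0.30 (SD, n = 2). Against the 7 NMDA receptor genes the share was 18.2% and 13.5%, a log2 ratio of -2.68 ± 0.31. Both differences were larger than the spread between the libraries.

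Gene by gene, the Grik values did not overlap those of the AMPA receptor genes, whereas they overlapped those of the NMDA receptor genes. The highest Grik values, 15.0 TPM for Grik2 in replicate 1 and 13.5 TPM for Grik5 in replicate 2, lay below all values of Gria1 (59.2 and 48.3 TPM), Gria2 (255 and 246), Gria3 (85.2 and 105) and Gria4 (33.65 and 18.2). Among the NMDA receptor genes Grin1, the obligatory subunit, stood at 72.6 and 99.4 TPM, Grin2b at 110 and 76.1, Grin2a at 14.5 and 19.2 and Grin3a at 11.1 and 6.77. In replicate 1 Grin2a lay between Grik5 and Grik2, at 12.04 and 15.0 TPM, and in replicate 2 it lay above every Grik gene. Grin3a lay below Grik2 and Grik5 in both pools and above Grik1, Grik3 and Grik4. Lower than the Grik genes other than Grik4 were Grin2c at 0.51 and 0.64 TPM, Grin2d at 0.53 and 0.32, and Grin3b, listed at 0 in replicate 1 and at 0.41 in replicate 2. The delta receptor gene Grid1 stood at 9.53 and 4.98 TPM, above Grik1, Grik3 and Grik4 in each pool.

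The Grik median of log2(TPM + 1) minus the AMPA median was -3.99 ± 0.44 (SD, n = 2), and minus the NMDA median it was -1.09 ± 0.01. The Grik minus NMDA difference was -3.01 when genes at mean TPM below 1 were left out, which removes Grin2c, Grin2d and Grin3b from the NMDA list and no Grik gene.

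**Figure D3:**
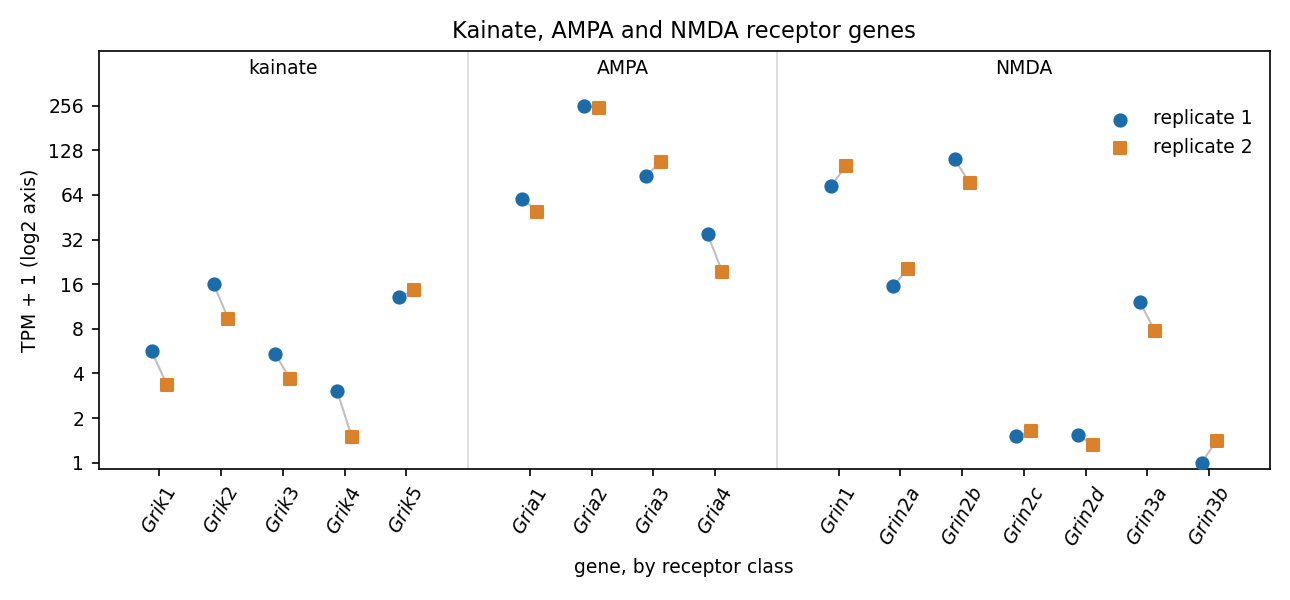
TPM + 1 on a log2 axis for the kainate, AMPA and NMDA receptor genes by class, with circles for replicate 1 and squares for replicate 2. The Grik genes lie at or below 15.0 TPM, and every AMPA receptor gene lies at or above 18.2 TPM.

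Between the pools, 6 of the 7 genes were higher in replicate 1, against 49.8% of the 14332 genes with a mean of 1 CPM or more, and Grik5 was the exception. CPM are read counts scaled to library size, here by TMM, which sets the sizes from the bulk of genes. Grik4 had 8.94 CPM in replicate 1 and 2.33 CPM in replicate 2, a ratio of 3.84 (95% exact counting interval from 2.88 up to 5.20). Grik1 had 10.2 and 5.11 CPM, a ratio of 1.99 (1.61 to 2.48), and Grik2 had 57.5 and 30.6 CPM, a ratio of 1.88 (1.72 to 2.05). These are the widest gaps among the 7 genes, and Grik4 and Grik1 are the genes with the fewest reads.

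Grik3 had a ratio of 1.64 (1.47 to 1.84), Neto1 of 1.56 (1.46 to 1.67) and Neto2 of 1.43 (1.33 to 1.54). Grik5 had 38.5 CPM in replicate 1 and 43.2 CPM in replicate 2, a ratio of 0.89 (0.82 to 0.97). Among 7419 protein-coding genes in the same range of CPM the ratio had a median of 0.99 and lay between 0.63 and 1.61 from the 10th to the 90th percentile. The ratios of Grik1, Grik2, Grik3 and Grik4 lay above that range, and those of Grik5, Neto1 and Neto2 within it. The counting intervals of Grik1, Grik3 and Neto1 include its upper limit, so the side on which these genes fall is not settled by their counts. The range pools genes from 5.64 CPM, the mean of Grik4, to 73.1 CPM, the mean of Neto1, and is not matched to each gene. With 1 library on each side these ratios have no replicate check.

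Grik1 and Grik4 fall short of a mean of 10 CPM. Among the 9189 genes that reach it, 4 of 5 members were higher in replicate 1, against 47.3% of all. At least 2-fold apart there were 0 of 5 members, against 4.47% of all genes, made up of 2.62% higher in replicate 1 and 1.85% higher in replicate 2. With the minimum set to a mean of 1 CPM, 1 of 7 members was 2-fold apart, which was Grik4, higher in replicate 1. The background there was 10.4% of genes, made up of 6.47% higher in replicate 1 and 3.91% higher in replicate 2. The log2 ratio, with a pseudocount of 1 CPM, was 1.58 for Grik4 and 0.89 for Grik2. Library scaling decides some of these calls. With spike-in totals the median log2 ratio over the 9189 genes was 0.32 in place of -0.02, and Grik2 and Grik3 passed 2-fold at 1.24 and 1.03. Of the genes past 2-fold, 90.9% were higher in replicate 1 with spike-in totals and 58.6% with TMM. The log2 ratio of Grik5 was -0.16 with TMM, lower in replicate 1, and 0.19 with spike-in totals, higher in replicate 1. Under both scalings Grik5 had the lowest log2 ratio of the 7.

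**Figure D4:**
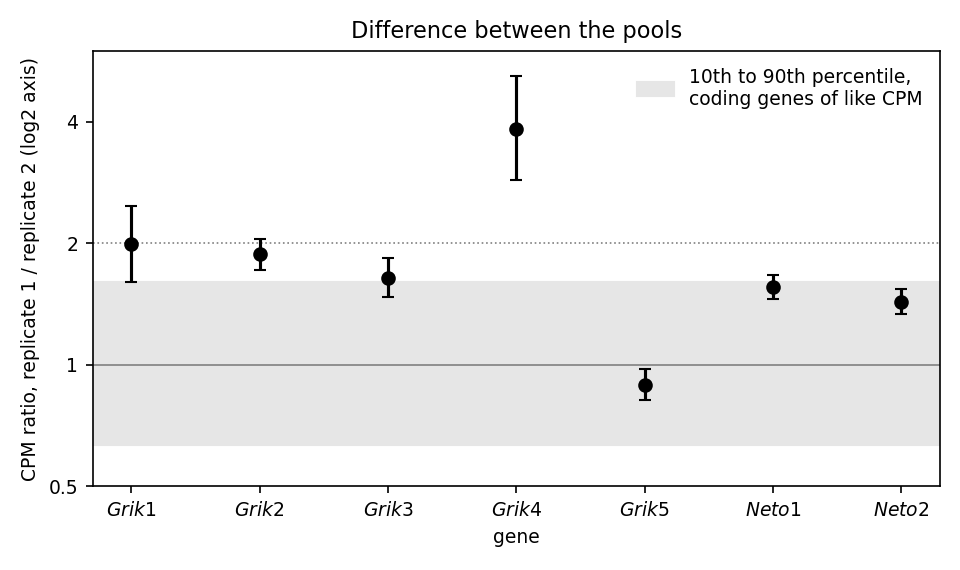
Ratio of CPM in replicate 1 to CPM in replicate 2 (log2 axis) for each gene, with bars for the 95% exact counting interval, a dotted line at 2-fold and a band from the 10th to the 90th percentile of coding genes of like CPM. Grik4 lies highest at 3.84, and Grik5 alone lies below 1, at 0.89.

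Interneuron, oligodendrocyte precursor and microglial markers were mostly higher in replicate 1, as were 6 of the 7 receptor and Neto genes. Among all 21474 protein-coding genes 8127 had a higher TPM in replicate 1 and 7607 in replicate 2. Of the 15 interneuron markers 14 had a higher TPM in replicate 1, and the list summed to 6595 TPM in replicate 1 and to 4011 in replicate 2. Without Cck, which pyramidal neurons also express, the sums were 3947 and 1540 TPM. Sst, the somatostatin gene, stood at 2506 and 844 TPM, and Cck at 2648 and 2471 TPM. Vip stood at 153 and 0.03 TPM, Gad2, which encodes a GABA-synthesising enzyme, at 31.7 and 11.1, and Htr3a at 0.35 and 0, and these 3 were named after their values were seen. Oligodendrocyte precursor markers were higher in replicate 1 for 7 of 7 genes, with Olig1 at 17.8 and 14.7 TPM and Vcan at 5.71 and 1.81 and sums of 41.8 and 22.6. So were microglial markers for 9 of 9 genes, with C1qb at 39.4 and 13.9 and sums of 163 and 72.6.

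Layer 5 markers went the other way, with 7 of 9 higher in replicate 2 and sums of 2379 TPM in replicate 1 and 4893 in replicate 2, and so did 7 of 8 pan-neuronal markers, with Snap25 at 5388 and 6767 TPM and Stmn3 at 1423 and 1949. Oligodendrocyte markers did so for 8 of 9 genes, with Mbp at 207 and 287 TPM. Astrocyte sums were 628 and 740 TPM, led by Aldoc at 272 and 326 and S100b at 116 and 163. Endothelial sums were 135 and 126 TPM, led by Itm2a at 65.8 and 42.4 and Ly6c1 at 34.6 and 42.5. The part that any of these cells have in the Grik and Neto differences was not tested.

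The transcript table of replicate 1 divided Grik1, Grik2 and Grik4 among several transcripts, and gave all reads of Grik3, Grik5, Neto1 and Neto2 to the single transcript listed for each. For Grik1, ENSMUST00000023652 held 52.9% of the gene's TPM, ENSMUST00000072256 held 34.5% and ENSMUST00000114137 held 12.6%, all annotated as protein-coding. The counts behind them were 123, 82.8 and 32.6 estimated reads with posterior SDs of 17.6, 17.3 and 7.62, so the first pair of counts lies within a few posterior SDs of each other. In GENCODE M21 the coding sequences of ENSMUST00000023652 and ENSMUST00000072256 differ by an exon of 87 bases, or 29 codons in frame. This exon lies near the 3′ end of the coding sequence at chr16:87896809-87896895 on the minus strand. It is present in ENSMUST00000072256 and absent from ENSMUST00000023652, and it lies in the part that encodes the intracellular tail of GluK1. ENSMUST00000114137 has another coding stretch of 147 bases that ENSMUST00000023652 lacks, which is not shown. Reads over the exon of 87 bases, or across the junction that skips it, can tell the first pair of forms apart, so this exon is shown.
Grik1 exon: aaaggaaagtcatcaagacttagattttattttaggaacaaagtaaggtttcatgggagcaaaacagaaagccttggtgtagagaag

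For Grik2, the transcript ENSMUST00000105487, of 4800 bases, held 75.5% of the TPM and ENSMUST00000147808, of 4365 bases, held 18.5%. Their identifiers did not match GENCODE M21, so no transcript type is given for them. Of 8 Grik2 transcripts listed 4 had reads, and ENSMUST00000079751 and ENSMUST00000105484, both annotated as protein-coding, were at 0 estimated reads. With 1065 and 237 estimated reads and posterior SDs of 17.6 and 13.9, the order of the leading transcripts was well separated within this library.

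For Grik4, ENSMUST00000114865 held 74.5% and ENSMUST00000034515 held 25.5% in replicate 1, from 175 and 34.2 estimated reads with a posterior SD of 12.5 each. Both carry the same coding sequence of 2868 bases and differ outside it, with transcript lengths of 5887 and 3413 bases. The gene length in the deposited tables is the mean of the transcript lengths weighted by their shares, within 0.1% for 9312 of 9312 genes with several transcripts at TPM of at least 1 in replicate 1. With 2 transcripts listed, the gene length of Grik4 therefore also gives the shares in replicate 2, which were 96.5% for ENSMUST00000114865 and 3.54% for ENSMUST00000034515. Only 61 reads stand behind the replicate 2 shares. Gene lengths in place of shares for Grik1, 2668 bases in replicate 1 and 2634 in replicate 2, do not fix the shares of 3 transcripts.

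**Figure D5:**
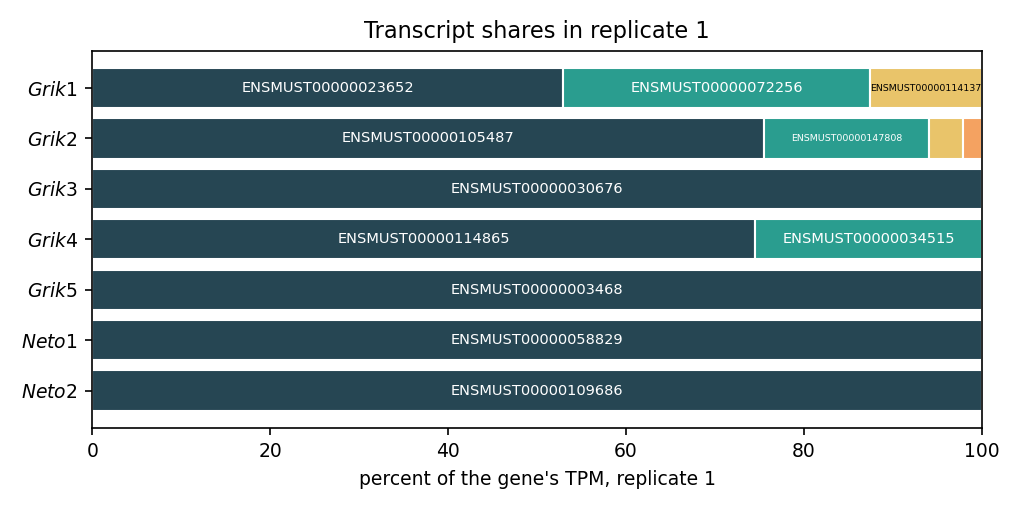
Share of each transcript in its gene's TPM in replicate 1 (horizontal axis, percent), one bar per gene with names on transcripts that hold at least 10%. Grik1 is divided 52.9%, 34.5% and 12.6%, Grik2 is led by 1 transcript at 75.5% and Grik4 by 1 at 74.5%, and the other genes have 1 transcript each.

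Few of the genes that overlap the members had reads where this could be read. GENCODE M21 lists 12 genes that overlap 5 of the 7 loci, 6 of them are in the deposited tables, and 2 of those had reads. Inside Grik2 the gene Gm26543 had 11 and 0 reads in replicates 1 and 2, and inside Grik3 the pseudogene Ftl2-ps had 101 and 14.9. The Gm26543 counts are low beside 1344 and 802 reads for Grik2. Those of Ftl2-ps lay below the 775 and 529 reads of Grik3, but in replicate 1 they were not negligible beside them. Like Grik3, Ftl2-ps had more reads in replicate 1. The posterior SD of the Grik3 read count was 0 in each library, so none of its reads was shared out with Ftl2-ps. Any other link between the counts of this pair was not tested. A gene on the opposite strand that overlaps Neto1 was not analysed here, and Mir8109, which overlaps Neto2 on the opposite strand, had 0 reads. Strand use in the counting is not given in the sources used here.

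Genes whose products traffic, anchor or edit kainate receptors were mostly detected. Of 17 partner genes measured, 16 reached TPM of at least 1 in both libraries, against 52.2% of 21474 protein-coding genes. Of the 17, 9 had a higher TPM in replicate 1 and 8 in replicate 2. Their median log2 ratio over the 16 at mean CPM of at least 1 was 0.10, against -0.01 over protein-coding genes. For the 5 Grik genes that median was 0.87, and for the 2 delta receptor genes it was 0.52. It was 0.18 for the 4 AMPA receptor genes and 0.02 for the 6 NMDA receptor genes at mean CPM of at least 1. Among the partners with high levels were Nsf, an ATPase of membrane fusion, at 233 and 310 TPM in replicates 1 and 2, Sdcbp, the scaffold protein syntenin, at 233 and 283, and Cul3, a ubiquitin ligase subunit, at 60.6 and 53.6.

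Adarb1, which encodes the deaminase ADAR2 known to edit the Q/R site of GluK2, stood at 18.5 and 18.9 TPM (18.7 ± 0.33, SD, n = 2). Adar stood at 7.44 and 9.41 TPM (8.43 ± 1.39). Adarb1 was thus level between the pools while Grik2 was at 15.0 and 8.27 TPM. The partner gene below TPM of 1 was C1ql2, at 0.50 and 0 TPM, from 19 and 0 reads. Its paralogue C1ql3 stood at 33.5 and 15.5 TPM, and both encode secreted proteins that recruit kainate receptors at hippocampal mossy fibre synapses. C1ql2 and C1ql3 were named after their values were seen.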

How the data were processed

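RNA was measured in 2 pools of 50 laser-captured cells, made into libraries by a Smart-seq type protocol, per the labels. The authors deposited for each library a table with an expected count per gene, an estimate of reads that is not normalized, and TPM, which was scaled with the 96 spike-ins counted in. The authors also deposited, for replicate 1, a percent share of each transcript in its gene's TPM. Values derive from alignments on mm10 with annotation M4, per text files that were deposited too. Aligner, quantifier and strand use: not given in the sources used here. The 26248 entries with numeric identifiers held 3.31e-05% and 5.40e-05% of reads and, with spike-ins, were left out of library sizes.

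Symbols came from GENCODE M21 by identifier without version, for 42462 of 43346 genes. Expected counts were rounded, given TMM scaling factors with edgeR 4.0.16 under R 4.3.3 (DESeq2 1.42.0 size factors as an alternative) and compared as log2 of CPM with a pseudocount of 1. Intervals of ratios are exact conditional binomial intervals at 95%. Python 3.11.15, pandas 2.3.3, numpy 2.4.6, scipy 1.17.1 and Biopython 1.88 did the rest. The ratio step was tested on simulated counts with counting error only, which does not cover the spread between real libraries. Of 18 partner genes listed, 1 is not analysed here. All 7 members, all other ionotropic receptor genes, the 4 highest partners with Adarb1 and Adar, the 2 highest markers of each list and transcripts with a share of at least 10% were to be named, and some of these genes are not reported here. With 2 libraries a pattern between genes is 1 ratio, so no most alike genes are named. The members and lists were chosen with earlier results of these data known.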

Additional observations from a re-analysis of the deposited data

How the results depend on the processing

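Of 97 alternative values for 32 results, the values of single libraries not counted, 77 stayed within the spread or interval of the reported value or near its count, 17 moved further and 3 were reversed. Some of the 77 could not move. Grik3 and Neto2 have the same length in both annotations, and the minimum of TPM removed no Grik or AMPA gene. Counts over gene length are close to TPM by construction. The tally is therefore no measure of stability. With GENCODE M21 transcript lengths and the same reads, a setting chosen after the values were seen, the log2 ratio of Neto over Grik genes was reversed to -0.49 and that of Neto1 over Neto2 to -0.33. Only members with 1 listed transcript were given M21 lengths. Lengths of Grik1, Grik2, Grik4 and of the AMPA and NMDA genes were not changed. Longer lengths for Grik1 and Grik2 would lower the Grik sum, so the size of the Neto over Grik reversal is not settled. With posterior mean TPM and with counts over the deposited gene length these ratios, and those of Grik over AMPA and NMDA genes, kept their direction. With 2 libraries each one lies within 1 SD of the mean, so values of 1 library are given as ranges and say nothing of stability. The log2 ratio of Grik2 over Grik5 ranged from -0.71 to 0.32 and changed sign between the libraries, as did that of Grik1 to Grik3 over Grik4 and Grik5. The ratio of Grik1 to Grik3 over Grik4 and Grik5 ranged from -0.08 to 0.77 over the libraries left alone, Neto over Grik from 0.15 to 0.26, and Neto1 over Neto2 from 0.86 to 0.98. Grik over AMPA genes ranged from -3.94 to -3.51 and over NMDA genes from -2.89 to -2.46. The Grik minus AMPA difference of medians ranged from -4.31 to -3.68 and the Grik minus NMDA difference from -1.10 to -1.09. With other settings the Grik minus NMDA difference was -1.28 with a pseudocount of 0.1 and -3.01 with genes at mean TPM of at least 1, because that minimum removes low NMDA genes.

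At least 2-fold apart were 0 members and 411 genes in the analysis as reported, 1 and 1487 from a mean of 1 CPM up, 1 and 1824 with no minimum, and 2 and 646 with spike-in totals. The log2 ratio of Grik5 changed sign to 0.19 with spike-in totals. The cause of the shift between spike-ins and genes was not tested. Of the genes past 2-fold, 58.6% were higher in replicate 1 with TMM and 90.9% with spike-in totals.

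Coding transcripts alone were not run, since the Grik2 transcripts with reads have no type in GENCODE M21, and ratios between libraries allow no library to be left out. No paired analysis was possible because there is 1 group. Depth limits Grik4 most, at 61 reads in replicate 2.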
